A study of Mus musculus with 12 samples.

Results

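A set of 7 genes that macrophage biology ties to alternative activation and to the use of arginine was followed by name through RNA-seq of mouse macrophages. They are Nos2 and Ass1, enzymes that use or make arginine, Il4ra and Klf4, a cytokine receptor chain and a transcription factor, and Mrc1, Chil3 and Tgm2, which are products used as markers of the alternative state. The genes were listed by symbol, without a threshold on any value, and all 7 were found among 48795 genes listed. Of these, 6 passed the minimum level for a test (CPM, reads scaled to a common library size, above 1.5 in at least 2 of 12 libraries), which 11228 genes passed in all. Nos2 stayed under it and is given as read counts.

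The cells were bone marrow-derived macrophages (BMDMs), grown from marrow of male mice of 7 to 11 weeks with M-CSF. The labels give C57BL/6 for WT cells, where the study's methods give C57BL/6NJ, and C57BL/6NJ-Acod1em1(IMPC)J/J for cells labelled Acod1-/-, which are meant to lack the mitochondrial enzyme that makes itaconate from cis-aconitate. Each genotype received vehicle, urban particulate matter (PM, 20 μg/cm2 for 24 hours), or 4-octyl itaconate (OI, 0.25 mM), a form of itaconate that crosses membranes, for 2 hours before the same PM. Each of these 6 groups had 2 libraries, and no group received OI without PM, so every statement on OI is about cells that also received PM.

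Macrophages exposed to IL-4 or IL-13 signal through a receptor that contains the Il4ra chain, activate STAT6 and take on an alternative state with abundant mannose receptor. Inducible nitric oxide synthase, which rises in classically activated macrophages, uses arginine to make nitric oxide and citrulline. Argininosuccinate synthase and lyase turn citrulline back into arginine. The sources used here name M-CSF and no IL-4 in these cultures.

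Libraries held 33616577 to 36817898 counts. All 8 macrophage markers checked were detected in every library, with a summed level of 14278 to 27338 normalized CPM. In comparison, 6 lymphocyte markers summed to at most 0.0833, 5 mast cell and basophil markers to at most 0.115 and 6 dendritic cell markers to at most 0.555. Stromal cell markers (5) summed to at most 2.82, and 4 eosinophil markers to 4.28 to 6.73. Libraries labelled Acod1-/- still held Acod1 reads, at 108 and 94.1 normalized CPM with PM against 181 and 170.3 in WT cells, and the deleted stretch is not given in the sources used here, so counts over the whole gene do not check that label. Nnt and Wdfy1, genes known to differ between C57BL/6 substrains, also differed between the genotypes (with vehicle, Nnt was 37.4 and 37.7 in WT libraries and 72.4 and 74.3 in Acod1-/- libraries, and Wdfy1 16.2 and 15.8 against 71.9 and 71.6). The labels and methods thus differ on whether WT cells share the substrain of Acod1-/- cells, and genotype and strain cannot be told apart in any WT to Acod1-/- comparison below. The 2 libraries of the WT OI and PM group, and the 2 of the WT PM group, differed from each other more than the pairs of the other groups did, with a chi-square per degree of freedom of 58.5 and 27.3 against 2.61 to 8.32. Across genes, the difference between the 2 libraries went with gene length in both groups (Spearman rho 0.607 and 0.595, genes not being independent replicates), and in the other groups rho was between -0.355 and 0.288.

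Promoter sequence was at hand for 5 of the 7 genes (300 bases each, 250 before to 50 after the start, RefSeq, GRCm38.p6), namely Ass1, Mrc1, Chil3, Il4ra and Klf4. The first 3 below are shown because they belong to the member that rose most and to members that fell under OI, with each CG pair in capitals. They lie at chr2:31470020-31470319 on the plus strand (Ass1), chr2:14229164-14229463 on the plus strand (Mrc1) and chr3:106167515-106167814 on the minus strand (Chil3), and each is printed 5′ to 3′ on the gene's strand.
Ass1: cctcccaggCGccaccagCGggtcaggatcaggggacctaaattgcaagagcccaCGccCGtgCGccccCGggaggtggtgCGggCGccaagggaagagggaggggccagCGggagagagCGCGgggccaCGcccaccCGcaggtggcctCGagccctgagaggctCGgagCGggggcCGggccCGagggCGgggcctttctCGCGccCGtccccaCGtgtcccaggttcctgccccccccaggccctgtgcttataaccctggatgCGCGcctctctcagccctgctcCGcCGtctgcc
Mrc1: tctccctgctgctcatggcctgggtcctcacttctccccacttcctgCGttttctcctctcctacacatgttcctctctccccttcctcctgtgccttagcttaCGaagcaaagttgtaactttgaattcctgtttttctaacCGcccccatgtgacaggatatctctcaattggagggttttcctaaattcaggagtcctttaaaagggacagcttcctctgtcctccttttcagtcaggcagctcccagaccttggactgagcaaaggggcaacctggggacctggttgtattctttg
Chil3: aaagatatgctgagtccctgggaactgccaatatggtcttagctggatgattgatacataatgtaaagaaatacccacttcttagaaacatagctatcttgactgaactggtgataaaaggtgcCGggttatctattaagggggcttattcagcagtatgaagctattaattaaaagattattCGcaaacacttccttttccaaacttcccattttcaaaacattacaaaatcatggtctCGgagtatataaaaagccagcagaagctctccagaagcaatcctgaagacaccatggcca

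The Ass1 window held 27 CG pairs, more than 84.5% of the 32851 promoters in the same collection. Mrc1 and Chil3 held 3 each, against a median of 7, and their GC content was 50.3% and 38.7% against 74.0% for Ass1. Klf4 held the most of the 5, with 40, and Il4ra held 25. A STAT6-type, an NF-kB-type and an antioxidant response motif were looked for on both strands in these windows, and only the Il4ra window held any. It is printed with both matches in capitals and lies at chr7:125552021-125552320 on the plus strand.
Il4ra: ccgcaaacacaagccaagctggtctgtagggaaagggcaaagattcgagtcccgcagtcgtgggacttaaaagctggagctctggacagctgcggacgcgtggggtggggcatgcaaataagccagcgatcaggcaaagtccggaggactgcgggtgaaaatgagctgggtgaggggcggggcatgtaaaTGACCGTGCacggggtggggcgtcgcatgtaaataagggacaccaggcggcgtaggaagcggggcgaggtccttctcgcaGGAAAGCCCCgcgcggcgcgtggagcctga

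The match that begins 60 bases before the start reads TGACCGTGC and fits the antioxidant response element core TGACNNNGC, which 12.4% of all promoters held. The other begins 20 bases after the start, reads GGAAAGCCCC on the gene's strand and fits an NF-kB-type site (GGG and TTTCC with any pair of bases between) on the opposite strand, which 1.63% held. A STAT6-type site (TTC and GAA with any 4 bases between), present in 6.95% of promoters, was in none of the 5 windows. The 2 matches do not overlap. These matches describe letters in a window and were not tested for binding.

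Ass1 (ENSMUSG00000076441.9, chr2:31470207-31520672, plus strand) encodes argininosuccinate synthase, the enzyme that condenses citrulline with aspartate. WT cells held 1.28 and 1.53 normalized CPM with vehicle, 21.1 and 19.7 with PM, and 34.4 and 53.8 with OI and PM. Acod1-/- cells held 0.711 and 0.750, 15.6 and 14.5, and 26.0 and 31.6. The 6 groups did not overlap, and in both genotypes the order was vehicle, PM, then OI and PM. Vehicle libraries alone would not have passed the minimum for a test, so Ass1 entered it through treated groups, where it was high. In bulk RNA such as this, fewer cells that express a gene and less RNA per cell cannot be told apart. Ass1 had the largest rise with PM among the 6 tested genes, 14.5-fold in WT cells (log2 fold change 3.86, SE 0.240, edgeR adjusted p = 3.17e-06) and 20.5-fold in Acod1-/- cells (4.36, SE 0.273, adjusted p = 2.81e-06). It rose again with OI, by 1.11 (SE 0.180, edgeR adjusted p = 0.000759) in WT cells and 0.93 (SE 0.184, adjusted p = 0.00287) in Acod1-/- cells.

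Nos2 (ENSMUSG00000020826.7, chr11:78920787-78960254, plus strand), the inducible nitric oxide synthase, was close to the counting floor. WT libraries held 2 and 0 reads with vehicle, 12 and 11 with PM, and 2 and 0 with OI and PM. Acod1-/- libraries held 3 and 1, 27 and 17, and 1 and 5. Every PM library was above every library of the other groups. Summed over both libraries and scaled for depth, PM libraries held 12.7 times the reads of vehicle libraries in WT cells (95% exact interval 3.13 to 111) and 11.6 times in Acod1-/- cells (4.23 to 44.5), and 10.4 times (2.57 to 90.9) and 7.01 times (2.98 to 20.1) those of libraries with OI and PM. Such intervals cover counting error only. Without Acod1-/- OI and PM replicate 2, the log2 ratio of Nos2 reads with OI and PM to those with PM went from -2.81 to -4.41. In an edgeR fit that kept genes with at least 10 counts in total, Nos2 had an adjusted p of 0.0269 and 0.00672 for PM in WT and Acod1-/- cells and of 0.0238 and 0.0110 for OI. The study reports no induction of this enzyme by PM in BMDMs of either genotype, and detected its protein only with lipopolysaccharide. The reads here are RNA near the counting floor and do not measure protein.

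**Figure D1:**
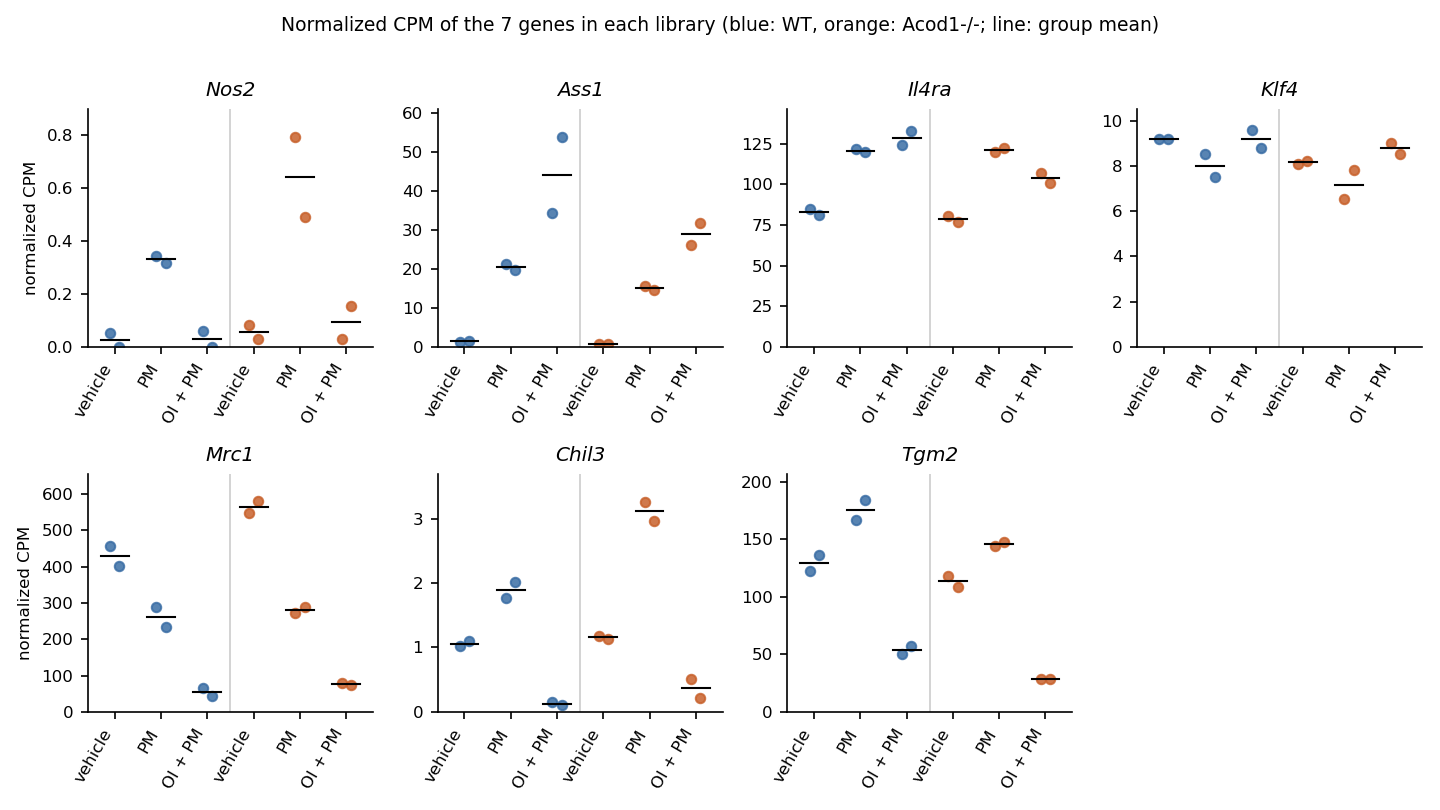
Normalized CPM (vertical axes, from 0) of the 7 genes in each of the 12 libraries, by treatment, with WT in blue, Acod1-/- in orange and group means as lines. Nos2, Mrc1, Chil3 and Tgm2 were lowest, or level with vehicle in the case of Nos2, in the groups with OI, while Ass1 was highest there.

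Il4ra (ENSMUSG00000030748.9, chr7:125552120-125579474, plus strand) encodes the chain shared by IL-4 and IL-13 receptors. Its WT libraries were at 84.9 and 81.0 normalized CPM with vehicle, 122 and 120.0 with PM, and 124 and 133 with OI and PM. Those of Acod1-/- cells were at 80.2 and 77.0, 119.9 and 122, and 107 and 101. All 8 libraries with PM lay above all 4 with vehicle. Il4ra rose with PM by 0.54 (SE 0.0634, edgeR adjusted p = 0.000208) in WT cells and 0.62 (SE 0.0636, adjusted p = 7.04e-05) in Acod1-/- cells. With OI the WT difference was 0.09 (95% interval -0.05 to 0.23, edgeR adjusted p = 0.268). In Acod1-/- cells Il4ra fell by 0.22 (SE 0.0633, adjusted p = 0.0209), a call lost without PM replicate 1, PM replicate 2 or OI and PM replicate 2 of that genotype (edgeR adjusted p = 0.0657, 0.106 and 0.159) and with 10 counts as the minimum (-0.20, adjusted p = 0.0517). An antisense gene, Gm44876, overlaps its exons.

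Klf4 (ENSMUSG00000003032.8, chr4:55527143-55532466, minus strand), a zinc finger transcription factor that acts with STAT6 in alternative activation, was the steadiest of the 7. It stood between 6.53 and 9.61 normalized CPM in all 12 libraries, at 9.19 and 9.19 with vehicle in WT cells and 8.12 and 8.25 in Acod1-/- cells. PM libraries were at 8.54 and 7.52 in WT cells and 6.53 and 7.85 in Acod1-/- cells, below vehicle in each case. The log2 fold change with PM was -0.19 (SE 0.109, edgeR adjusted p = 0.202) and -0.19 (SE 0.111, adjusted p = 0.248), and that with OI was 0.20 (SE 0.11, adjusted p = 0.167) and 0.29 (SE 0.111, adjusted p = 0.0709). None passed the test, and the widest of these 4 intervals reached from 0.04 to 0.54. That one, OI in Acod1-/- cells, passed with the compared groups fitted alone (0.29, edgeR adjusted p = 0.0407) and without Acod1-/- PM replicate 2 (0.43, adjusted p = 0.0356).

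Mrc1 (ENSMUSG00000026712.3, chr2:14229392-14332057, plus strand), the mannose receptor CD206, fell at each step. WT libraries held 457 and 401 normalized CPM with vehicle, 287 and 233 with PM, and 65.3 and 44.1 with OI and PM. Acod1-/- libraries held 549 and 580.2, 273 and 288, and 79.5 and 72.6. Vehicle, PM and OI groups were apart within each genotype. With PM, Mrc1 fell, at -0.72 on the log2 scale (SE 0.160, edgeR adjusted p = 0.00995) in WT cells and -1.01 (SE 0.160, adjusted p = 0.00134) in Acod1-/- cells. With OI it fell further, at -2.25 (SE 0.169, edgeR adjusted p = 2.90e-06), or 4.75-fold, in WT cells and -1.88 (SE 0.166, adjusted p = 1.05e-05), or 3.69-fold, in Acod1-/- cells. The WT fall with PM was lost without vehicle replicate 1 (-0.62, edgeR adjusted p = 0.0863) or PM replicate 2 (-0.58, adjusted p = 0.0839). Mrc1 therefore moved against Chil3 and Tgm2 with PM and in the same direction with OI. General macrophage markers moved as well. Of 8, PM raised 5 and 4 and lowered 0 (medians 0.37 and 0.30), and OI raised 1 and 0 and lowered 6 and 6 (medians -0.69 and -0.74), with the largest fall in Fcgr1, an Fc receptor gene (-1.93 in WT and -2.14 in Acod1-/- cells). Of all genes, 24.8% and 23.9% were called with PM and 43.9% and 34.6% with OI. The part of these markers in the falls of Mrc1, Chil3 and Tgm2 with OI was not tested.

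Chil3 (ENSMUSG00000040809.10, chr3:106147554-106167564, minus strand) encodes the chitinase-like protein Ym1, a marker of alternative activation in mice that neutrophils also carry. It was low, with 38 and 43 reads (1.02 and 1.09 normalized CPM) with vehicle, 62 and 70 (1.77 and 2.02) with PM, and 5 and 3 (0.150 and 0.101) with OI and PM in WT libraries. Acod1-/- libraries held 43 and 41, 111 and 103, and 17 and 7 reads. PM libraries were the highest and OI libraries the lowest in each genotype. Vehicle and OI libraries alone would not have passed the minimum for a test. Chil3 thus entered it through PM libraries, where it was high, and both its rise with PM and its fall with OI were tested on that footing. Chil3 rose with PM by 0.84 (SE 0.217, edgeR adjusted p = 0.0201) in WT cells and 1.42 (SE 0.201, adjusted p = 0.000636) in Acod1-/- cells, and fell with OI, at -3.86 (SE 0.349, adjusted p = 1.22e-05) and -3.08 (SE 0.256, adjusted p = 6.90e-06). Without Acod1-/- OI and PM replicate 1, the library with 17 reads, the latter went to -3.83. The WT rise was lost without vehicle replicate 1, vehicle replicate 2 or PM replicate 2 (edgeR adjusted p = 0.126, 0.0852 and 0.119) and with a correction for gene length (0.61, adjusted p = 0.0542). Its close copy Chil4 had 0 counts in all 12 libraries.

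Of 8 neutrophil markers, 3 passed the minimum, and the 8 together stood at 6.47 to 6.65 normalized CPM in WT vehicle libraries, 13.1 to 19.4 with PM and 29.5 to 61.0 with OI and PM. In Acod1-/- cells the sums were 6.86 to 7.35, 19.7 to 20.2 and 34.0 to 34.3. Most of that was S100a8, which was highest with OI, where Chil3 was lowest. The other 2 tested markers, Ngp and S100a9, fell with OI. Ngp fell at -3.12 (SE 0.693, edgeR adjusted p = 0.00497) in WT cells and -1.90 (SE 0.423, adjusted p = 0.00583) in Acod1-/- cells, on levels under 3 normalized CPM in every library. With PM its difference was 0.32 (SE 0.434, edgeR adjusted p = 0.594) and 0.95 (SE 0.365, adjusted p = 0.0877), and its group means were thus in the order of Chil3, though its WT vehicle and PM libraries overlapped. S100a9 likewise stood highest with PM (1.26 and 2.16 in WT cells, 3.23 and 3.31 in Acod1-/- cells) and lower with OI (0.419 and 0.474, 1.02 and 1.05), in the same order. Its OI libraries alone would not have passed the minimum, so S100a9 too entered the test through libraries where it was higher. The defining marker Ly6g had 1 read in all 12 libraries. The part of such cells in the Chil3 result was not tested.

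Tgm2 (ENSMUSG00000037820.15, chr2:158116402-158146436, minus strand), a transglutaminase that crosslinks proteins and is induced by IL-4, was at 122 and 136 normalized CPM with vehicle, 166 and 184 with PM, and 50.5 and 57.0 with OI and PM in WT libraries. In Acod1-/- libraries it was at 119 and 109, 144 and 148, and 28.2 and 28.5. The pattern was a small rise followed by a large fall, and no 2 groups overlapped. Tgm2 rose with PM by 0.44 (SE 0.0859, edgeR adjusted p = 0.00540) in WT cells and 0.36 (SE 0.0860, adjusted p = 0.0127) in Acod1-/- cells. With OI it fell, at -1.71 (SE 0.0889, edgeR adjusted p = 2.12e-07), or 3.26-fold, and -2.37 (SE 0.0918, adjusted p = 2.95e-08), or 5.15-fold. The rise was lost in WT cells without vehicle replicate 1 (adjusted p = 0.0676, edgeR), and in Acod1-/- cells without vehicle replicate 2, PM replicate 1 or PM replicate 2 (edgeR adjusted p = 0.122, 0.0585 and 0.0729). Its exons overlap those of Rprd1b and Gm20412 on the opposite strand.

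Counted over the 6 tested genes, PM raised 4 at an adjusted p of 0.05 or less and lowered 1 in WT cells, where 12.6% of all 11228 genes were called higher and 12.2% lower (24.8% together). In Acod1-/- cells it likewise raised 4 and lowered 1, against 12% and 11.9% of all genes (23.9% together). The same 5 were called in both genotypes. Of these, Ass1 and Chil3 passed the minimum for a test only through treated groups, where they were high. With 1.5 CPM required in every library, 3 of 4 members tested were called in each genotype, beside 22.4% (WT) and 21.6% (Acod1-/-) of all genes. OI before PM lowered 3 (Mrc1, Chil3 and Tgm2) and raised 1 (Ass1) in WT cells, against 22.6% lower and 21.3% higher (43.9% together). In Acod1-/- cells it lowered 4 and raised 1, against 20.6% and 13.9% (34.6% together). The limit on Ass1 and Chil3 holds for these OI counts as well. With 1.5 CPM required in every library, 2 of 4 members tested were called with OI in WT cells and 3 of 4 in Acod1-/- cells. In those fits 40.1% and 31.4% of all genes were called. Median log2 fold changes of the 6 were 0.49 and 0.49 with PM and -0.81 and -1.05 with OI, beside medians over all tested genes of 0.01, 0.00, 0.02 and 0.00. A differentially expressed gene (DEG) was called with a change of at least 2-fold besides. With PM 1 of the 6 was a DEG in WT cells (4.15% of all genes) and 3 in Acod1-/- cells (4.5%). With OI these counts were 4 (10.8%) and 3 (9.83%). Without WT vehicle replicate 1 the count of 5 called with PM in WT cells went to 2, and without WT PM replicate 2 to 3, in fits that called 10.6% and 12.4% of all genes.

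On a scale per length (normalized CPM per kb of exon), Mrc1 led with vehicle in WT cells at 67.4, ahead of Tgm2 at 28.1 and Il4ra at 13.8. With PM Mrc1 stood at 40.9 and Tgm2 at 38.0, and Ass1 moved from 0.582 to 8.46. By group mean, the leader with OI and PM was Il4ra at 21.4, followed by Ass1 at 18.3 (SD 5.69 over 2 libraries), Tgm2 at 11.7 and Mrc1 at 8.59. In Acod1-/- cells Mrc1 led with vehicle at 88.6 and with PM at 44.0, and Il4ra led with OI and PM at 17.3. Nos2 was last of the 7 in all 6 groups, at 0.00606 to 0.145.

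**Figure D2:**
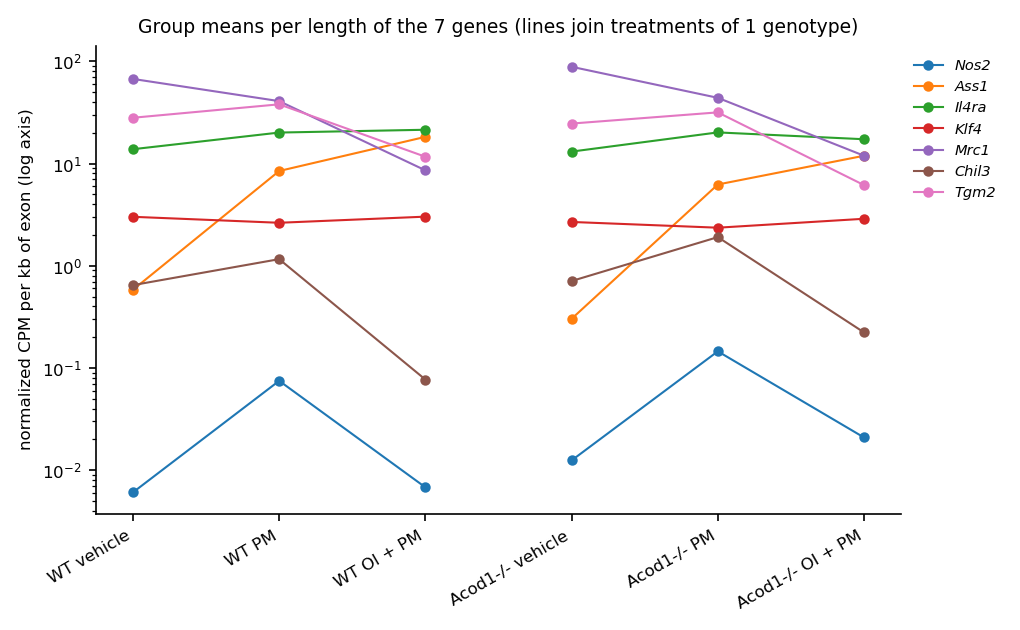
Group means in normalized CPM per kb of exon (vertical log axis) for the 7 genes, with lines joining the treatments of 1 genotype. Mrc1 crosses below Il4ra between PM and OI with PM in both genotypes, from 40.9 to 8.59 in WT cells.

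The genotypes were compared under each treatment, which asks whether cells labelled Acod1-/- differed in these genes. With vehicle, edgeR called 0 of the 6 (1.83% of all genes), 2 had an unadjusted p under 0.05 (10.2% of all genes) and DESeq2 called 0. Ass1 differed by -0.94 (95% interval -1.75 to -0.14, edgeR adjusted p = 0.366) and Mrc1 by 0.40 (95% interval 0.04 to 0.75, adjusted p = 0.399). With the fit limited to the vehicle groups, 3 were called, Mrc1, Ass1 and Tgm2, as were 20.6% of all genes.

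With PM, edgeR called 0 of the 6 (2.4% of all genes), 3 had an unadjusted p under 0.05 (14% of all genes) and DESeq2 called 0. Chil3 stood at 111 and 103 reads against 62 and 70 (0.72, 95% interval 0.30 to 1.13, adjusted p = 0.0901, edgeR), and was called with a gene length offset (0.77, adjusted p = 0.0360), which called 5.25% of all genes. Nos2 reads were 1.94 times (95% exact interval 1.15 to 3.36) as many in Acod1-/- as in WT PM libraries, and the edgeR adjusted p with at least 10 counts as the filter was 0.536. Ass1 differed by -0.44 (95% interval -0.85 to -0.02, edgeR adjusted p = 0.324) and Tgm2 by -0.26 (-0.45 to -0.07, adjusted p = 0.182). Il4ra differed by 0.00 (95% interval -0.14 to 0.15) and Mrc1 by 0.11 (-0.25 to 0.46).

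With OI and PM, 2 of the 6 were called, against 6.96% of all genes. Tgm2 was lower in Acod1-/- libraries, at 28.2 and 28.5 against 50.5 and 57.0 normalized CPM, by -0.92 (SE 0.0899, edgeR adjusted p = 0.000778), and the call held without each of the 4 libraries in turn (adjusted p up to 0.0172) but not with the 2 groups fitted alone (0.137), a fit that called 0.0178% of all genes. Il4ra was lower by -0.31 (SE 0.0633, edgeR adjusted p = 0.0218), and this was lost without WT OI and PM replicate 2 or either Acod1-/- OI and PM library (adjusted p = 0.0650, 0.108 and 0.173), with total-count scaling (0.0525) and with the groups fitted alone (0.388). Ass1 (-0.61, edgeR adjusted p = 0.0662), Mrc1 (0.47, adjusted p = 0.102) and Chil3 (1.5, adjusted p = 0.0925) did not pass. DESeq2 called Ass1 besides (-0.60, adjusted p = 0.0283), where it called 11.8% of all genes. A gene length offset called Ass1 (-0.47, edgeR adjusted p = 0.0353), Mrc1 (0.43, adjusted p = 0.0471) and Chil3 (1.66, adjusted p = 0.0495), with 15.4% of all genes. Block and offset together called Ass1 and Mrc1 (edgeR adjusted p = 0.0317 and 0.0251), with 16.9% of all genes. Without Acod1-/- OI and PM replicate 1, Chil3 went to 0.75 (edgeR adjusted p = 0.581). Over the fits that left out 1 library, Ass1 ranged from -0.90 to -0.26 and Mrc1 from 0.22 to 0.79, each largest in size without WT OI and PM replicate 1.

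**Figure D3:**
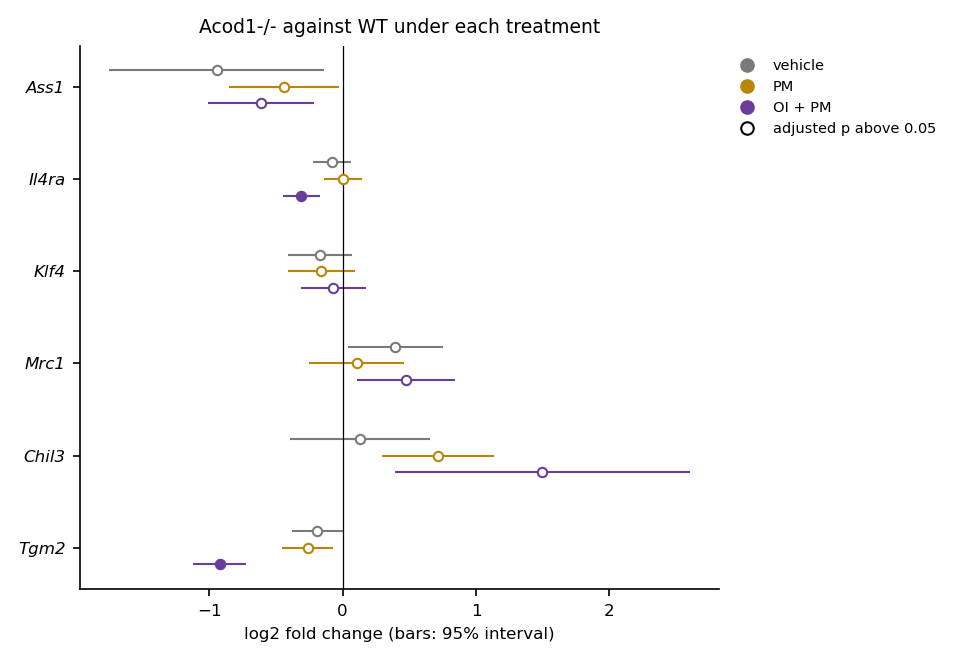
Acod1-/- against WT in log2 fold change (horizontal axis) with 95% intervals for the 6 tested genes under vehicle (grey), PM (gold) and OI with PM (purple), open where the adjusted p was above 0.05. Filled points are Tgm2 at -0.92 and Il4ra at -0.31 with OI and PM.

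Whether the treatment effects themselves differed between genotypes was tested by interaction terms. For PM, edgeR called 0 of the 6 and 0 of all genes (0%), 0 of the 6 had an unadjusted p under 0.05 (2.43% of all genes), and DESeq2 called 0 of the 6. The difference in effect (Acod1-/- minus WT) was -0.29 for Mrc1 (95% interval -0.79 to 0.22) and 0.58 for Chil3 (-0.09 to 1.26). For OI, edgeR again called 0 of the 6 and 0 of all genes (0%), but 2 of the 6 had an unadjusted p under 0.05, against 6.39% of all genes, and DESeq2 called 1 of the 6 (0.303% of all genes). That was Tgm2, whose fall was larger in Acod1-/- cells, with a difference of -0.66 (95% interval -0.94 to -0.38, edgeR adjusted p = 0.191, DESeq2 adjusted p = 0.00212). Without WT OI and PM replicate 1, edgeR called Tgm2, Mrc1 and Il4ra (adjusted p = 0.0240, 0.0457 and 0.0473), along with 4.68% of all genes.

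Of 29 further genes that carry arginine, use it or make polyamines and the nitric oxide synthase cofactor, 26 were tested. PM raised 3 and lowered 6 in WT cells and raised 3 and lowered 7 in Acod1-/- cells, and their median log2 fold change was 0.13 and 0.04. Those called were 34.6% and 38.5% of the 26, beside 24.8% and 23.9% of all genes. Gch1, the first enzyme of tetrahydrobiopterin synthesis, which nitric oxide synthases need, was at 18.1 and 18.4 normalized CPM with vehicle and 45.1 and 44.1 with PM in WT cells, a rise of 1.29 (SE 0.141, edgeR adjusted p = 0.000135), and it rose by 1.24 (SE 0.141, adjusted p = 0.000155) in Acod1-/- cells. Pycr1, which makes proline, fell by 1.16 on the log2 scale (SE 0.324, adjusted p = 0.0269, edgeR) in Acod1-/- cells on 76 vehicle and 32 PM reads, and that call was lost without either vehicle library or PM replicate 1 (edgeR adjusted p = 0.168, 0.0541 and 0.192).

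With OI, 8 of the 26 rose and 7 fell in each genotype, and the medians were 0.09 and -0.01. The 57.7% called stand beside 43.9% of all genes in WT cells and 34.6% in Acod1-/- cells. Odc1, which turns ornithine into putrescine, was at 21.0 and 21.9 with PM and 60.2 and 76.7 with OI and PM in WT cells, and at 20.5 and 19.5 and then 62.3 and 59.8 in Acod1-/- cells. It rose by 1.67 (SE 0.114, edgeR adjusted p = 1.48e-06) and 1.61 (SE 0.115, adjusted p = 2.16e-06). Gatm, which uses arginine for creatine synthesis, had the largest fall, at -1.91 (SE 0.0788, edgeR adjusted p = 4.10e-08) and -1.93 (SE 0.0782, adjusted p = 3.94e-08). The arginine carrier gene Slc7a2 fell, at -1.01 (SE 0.139, edgeR adjusted p = 0.000238) and -1.19 (SE 0.142, adjusted p = 9.51e-05). Asl, the lyase that follows Ass1, was at 49.4 and 62.0 with PM and 59.98 and 79.4 with OI and PM in WT cells and did not pass (0.32, SE 0.136, edgeR adjusted p = 0.0808), nor in Acod1-/- cells (-0.05, SE 0.137, adjusted p = 0.815). In WT cells it passed without PM replicate 2 (0.49, edgeR adjusted p = 0.0264), without OI and PM replicate 1 (0.51, adjusted p = 0.00289) and with block and length offset together (0.31, adjusted p = 0.0442). Between genotypes 0 of the 26 were called with vehicle or with PM, beside 1.83% and 2.4% of all genes. With OI and PM 4 were called, all lower in Acod1-/- cells, beside 6.96% of all genes.

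**Figure D4:**
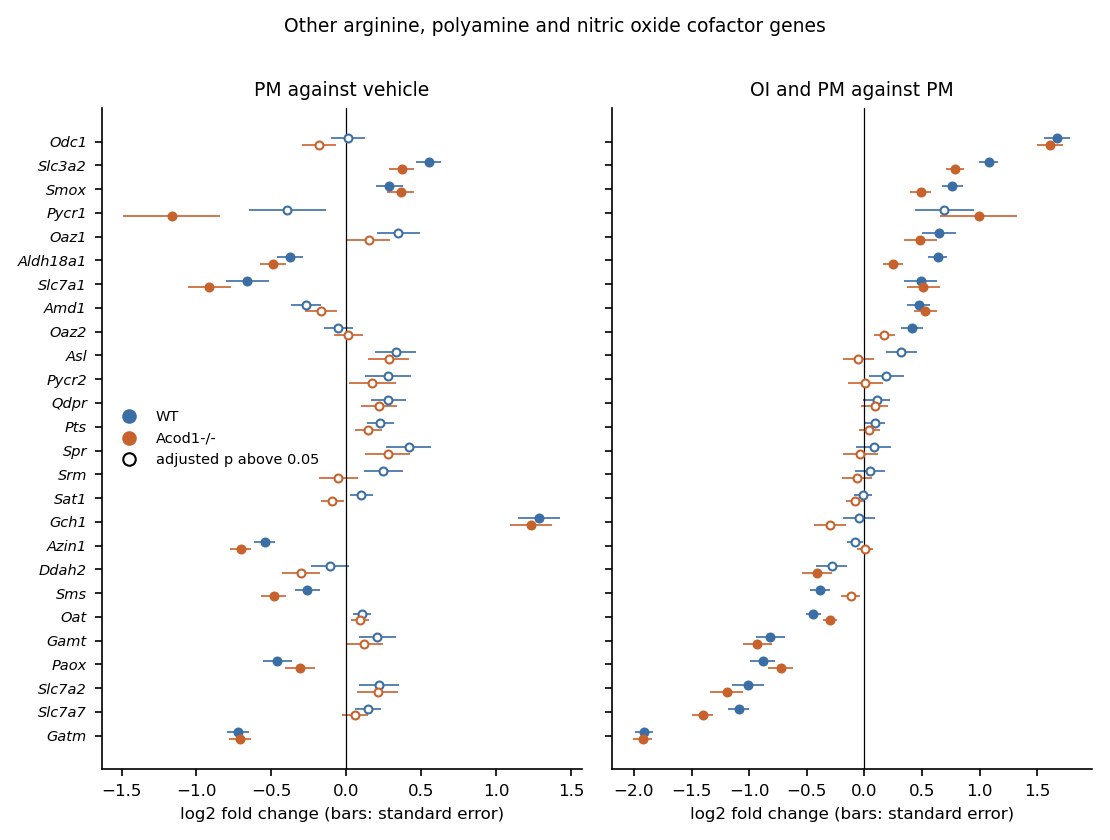
Log2 fold changes (horizontal axes) with standard errors for the 26 tested genes of arginine transport and use, polyamines and the nitric oxide cofactor, WT in blue and Acod1-/- in orange, open where the adjusted p was above 0.05. Gch1 stands out on the PM side at 1.29 in WT cells, and on the OI side the genes run from Gatm at -1.91 to Odc1 at 1.67.

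Of 17 genes of IL-4 and IL-13 signalling, 14 were tested. PM raised 4 and lowered 3 in each genotype (medians 0.01 and 0.10), and OI raised 2 and lowered 3 in WT cells and raised 2 and lowered 4 in Acod1-/- cells (medians -0.02 and -0.10). Called shares were 7 of 14 in each genotype with PM, and 35.7% and 42.9% with OI, beside 24.8%, 23.9%, 43.9% and 34.6% of all genes. Stat6, the factor that acts below Il4ra, stood between 279 and 297 normalized CPM in all 12 libraries, and its log2 fold change was between 0.00 and 0.05 in the 4 treatment comparisons. Il2rg, the common chain that pairs with Il4ra, rose with PM by 1.63 (SE 0.108, edgeR adjusted p = 4.75e-06) in WT and 1.69 (SE 0.108, adjusted p = 3.11e-06) in Acod1-/- cells and fell with OI, at -0.82 (SE 0.105, adjusted p = 0.000148) and -1.03 (SE 0.105, adjusted p = 3.11e-05). Il13ra1, the other partner of Il4ra, rose with PM by 0.60 (SE 0.0762, edgeR adjusted p = 0.000374) and 0.80 (SE 0.0779, adjusted p = 5.02e-05). It was called lower with OI in Acod1-/- cells. In the fit that left out OI and PM replicate 1 of that genotype, its log2 fold change with OI was -0.30. With OI and PM it was also called lower in Acod1-/- than in WT cells, but not with those groups fitted alone (-0.50, edgeR adjusted p = 0.323). Between genotypes 0 of the 14 were called with vehicle, 1 (lower) with PM and 1 (lower) with OI and PM, beside 1.83%, 2.4% and 6.96% of all genes. Egr2, a transcription factor induced by IL-4, was at 49.2 and 45.2 with PM and 131 and 125 with OI and PM in WT cells, a rise of 1.44 (SE 0.0651, edgeR adjusted p = 7.42e-08), and rose by 1.39 (SE 0.0650, adjusted p = 9.70e-08) in Acod1-/- cells.

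Of 20 further products of the alternative state, 11 were tested. Retnla had 2 reads in all 12 libraries and Ccl17 had 2, so both of these classical IL-4 targets were at or near 0 here. PM raised 2 and lowered 5 of the 11 in each genotype (medians -0.16 and -0.16), with the largest fall in Flt1, a receptor for vascular endothelial growth factor, at -2.09 (SE 0.155, edgeR adjusted p = 1.02e-05) and -1.84 (SE 0.133, adjusted p = 6.91e-06). OI raised 4 and lowered 7 in WT cells and raised 1 and lowered 6 in Acod1-/- cells (medians -0.84 and -0.62). Called shares were 63.6% and 63.6% with PM and 100% and 63.6% with OI, beside 24.8%, 23.9%, 43.9% and 34.6% of all genes. F13a1, a coagulation factor subunit that is also a transglutaminase like Tgm2, was at 20.3 and 17.99 with PM and 2.9 and 1.76 with OI and PM in WT cells, and it fell, at -3.02 (SE 0.171, edgeR adjusted p = 3.96e-07), and -3.28 (SE 0.209, adjusted p = 9.38e-07) in Acod1-/- cells. Il1rn, the IL-1 receptor antagonist, rose with PM by 0.71 (SE 0.0691, edgeR adjusted p = 6.24e-05) and 0.65 (SE 0.0691, adjusted p = 9.19e-05) and fell with OI, at -1.97 (SE 0.0718, adjusted p = 1.88e-08) and -2.05 (SE 0.0721, adjusted p = 1.51e-08), the order of levels seen for Tgm2. The scavenger receptor gene Cd36 rose with OI by 0.93 (SE 0.0683, edgeR adjusted p = 2.54e-06) and 1.19 (SE 0.0687, adjusted p = 4.56e-07). Clec10a, a lectin, fell with OI in WT cells, at -0.50 (SE 0.125, edgeR adjusted p = 0.00861), a call lost without PM replicate 2 (-0.36, adjusted p = 0.0590) and with the compared groups fitted alone (-0.52, adjusted p = 0.122), and was at 0.19 (SE 0.123, adjusted p = 0.266) in Acod1-/- cells.

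Between genotypes, F13a1 was lower in Acod1-/- cells with vehicle, at 8.99 and 9.0 against 21.7 and 21.2 normalized CPM (-1.25, SE 0.143, edgeR adjusted p = 0.00207), with PM (-1.13, SE 0.145, adjusted p = 0.00334) and under OI with PM (-1.39, SE 0.248, adjusted p = 0.0136). The PM call was lost without Acod1-/- PM replicate 1 (edgeR adjusted p = 0.0622), and the OI and PM call without either Acod1-/- library (adjusted p = 0.108 and 0.104) and with the compared groups fitted alone (-1.36, adjusted p = 0.314). Flt1 was higher in Acod1-/- cells with vehicle, at 13.2 and 12.9 against 6.36 and 7.25 (0.94, SE 0.122, edgeR adjusted p = 0.00389), a call lost without WT vehicle replicate 1 or either Acod1-/- vehicle library (adjusted p = 0.0699, 0.0591 and 0.0526). It was also higher with PM, at 3.50 and 3.77 against 1.46 and 1.73 (1.19, SE 0.167, edgeR adjusted p = 0.00545), which was lost without PM replicate 2 of that genotype (adjusted p = 0.0565), and stood at 0.29 (SE 0.162, adjusted p = 0.245) with OI and PM.

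Over the 12 libraries, the pattern of Ass1 in log2 CPM was most like those of Gpr141 (Pearson r = 0.995) and Bst1 (0.994). The nearest to Mrc1 were Cbx5 (0.997) and Abcb1b (0.996), and to Tgm2 Paqr4 (0.990) and Itga5 (0.987). Chil3 was closest to Enpp4 (0.984) and Cd300ld (0.980), and Il4ra to Ehd1 (0.983) and Ninj1 (0.976). Klf4, with its narrow range, had weaker matches in Chuk (0.921) and Recql5 (0.898). Among the 6 themselves, Ass1 and Il4ra ran most alike (0.920), Chil3 and Tgm2 next (0.810), and Ass1 and Mrc1 were the most opposed (-0.844). These correlations describe 12 libraries in 6 groups that share treatments, so they mostly restate the group means.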

How the data were processed

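RNA of 12 BMDM libraries (2 for each of 6 groups, single-end reads of 50 bp) was sequenced. Per the labels and the study's methods, the authors checked reads with FastQC 0.11.5, mapped them to GRCm38 with STAR 2.5.3a, assessed mapping with Picard 2.9.0 and counted reads per gene with featureCounts, and they deposited raw counts without normalization or filter. The annotation release, strand setting and handling of multiply mapped reads are not given in the sources used here, nor is whether the 2 libraries of a group came from separate animals, so p-values measure the spread between these libraries, which may be technical.

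Libraries held 33616577 to 36817898 counts. Of 48795 genes, 48349 were matched to a symbol. Positions and exonic lengths came from a GENCODE annotation of GRCm38. Genes with a CPM above 1.5 in at least 2 of 12 libraries (11228) were tested. Counts were scaled by TMM and fitted with edgeR 4.0.16 (R 4.3.3, limma 3.58.1) by its quasi-likelihood test, all 12 libraries in a single fit with a mean for each group and no replicate block, and p-values were adjusted by Benjamini-Hochberg over all genes tested. The study's methods use DESeq2, which was an alternative here (1.42.0, Wald test). A gene rose or fell when the adjusted p was 0.05 or less, and a DEG also changed at least 2-fold. Standard errors are those implied by F (log2 fold change over root F). Correlations used log2 CPM with a prior count of 2. Ratios of reads are summed over both libraries and divided by scaled depth, with 95% exact conditional binomial intervals. The scripts were tested on simulated data.

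Other alternatives were total-count or RLE scaling, keeping genes with 10 counts or more, keeping genes over 1.5 CPM in every library, fitting the compared groups alone, a replicate block, an offset for gene length (lowess, span 0.3), both together, and omitting libraries one by one, where the lone library of an arm is taken to vary like the other groups. A crossed block and the alternatives for the read ratios were chosen after seeing the data. The members and the gene lists were chosen with earlier results of these data known. Some listed genes are not reported here and enter no count of members. Apart from the 7 members, genes named are Asl, Slc7a2, Odc1, Gch1, Stat6, Il13ra1, Retnla, Clec10a and Il1rn, the DEGs with the largest rise and fall of each pathway list in the treatment and genotype comparisons, the 2 genes with the nearest pattern to each tested member, cell type markers, and Acod1, Nnt and Wdfy1 as checks. Ccl17 and Chil4 were named after their values were seen.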

Additional observations from a re-analysis of the deposited data

How the results depend on the processing

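Each of the 54 fold changes of the 6 tested members was recomputed under 12 to 17 other settings, 738 values in all. Of these, 679 kept the direction and the side of the threshold, 16 changed sign with neither fit calling them, 21 kept the direction but no longer passed, 22 kept it and newly passed, and 0 of those called in either fit turned. Total-count scaling moved the median of all genes in WT cells with OI against PM from 0.02 to -0.11 on the log2 scale, which is small beside the member changes called there. With a minimum of 1.5 CPM in every library, which Ass1 and Chil3 no longer pass, members called went from 5 to 3 with PM in both genotypes, from 4 to 2 with OI in WT cells and from 5 to 3 with OI in Acod1-/- cells, DEGs with OI in WT cells from 4 to 2, and DEGs with PM from 1 to 0 in WT cells and from 3 to 1 in Acod1-/- cells, because fewer members were tested. In that fit 22.4% and 21.6% of all 10031 genes tested were called with PM, and 40.1% and 31.4% with OI. DEGs there were 227 (WT) and 260 (Acod1-/-) with PM, and 676 with OI in WT cells. With at least 10 counts as the filter, which lets Nos2 in, DEGs with PM were 2 in WT cells and 4 in Acod1-/- cells. Of all 17642 genes tested there, 633 and 677 were DEGs.

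For genotype with vehicle, 0 members were called and 3 with those groups fitted alone (20.6% of all genes, from 1.83%). For genotype with PM, 0 were called, against 1 with a gene length offset, 1 with block and offset, and 3 with the crossed block, added after seeing the data (5.25%, 5.33% and 10.6% of all genes, from 2.4%). For genotype with OI and PM, 2 were called, against 0 with those groups alone, 1 with total counts, 3 by DESeq2, 5 with the length offset and 4 with block and offset (0.0178%, 6.87%, 11.8%, 15.4% and 16.9% of all genes, from 6.96%). The length offset gave 1 member DEG in place of 0, and 122 DEGs among all 11228 genes in place of 103. For the OI interaction, 0 were called, against 1 by DESeq2 (0.303% of all genes). The cause was not tested. Same-numbered libraries deviated together with correlations of -0.41 to 0.73 over 15 pairs of groups, the highest between WT PM and WT OI and PM and the lowest between WT PM and Acod1-/- PM. Not every pair was positive and the labels name no shared batch, so the numbers were not taken as pairs, and the replicate block changed no member's call.

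Leaving out each library in turn, the number of members called ranged from 2 to 5 with PM in WT cells, 1 to 4 for genotype with OI and PM, and 0 to 3 for the OI interaction (10.6% to 30.7%, 0.846% to 48.6% and 0% to 4.68% of all genes), and DEGs between genotypes with OI and PM ranged from 0 to 1. Gch1 with OI in WT cells turned, from -0.04 in the full fit to 0.20 without WT OI and PM replicate 1 and -0.33 without replicate 2. Depth limits Nos2, whose highest library held 27 reads, and 2 libraries a group limit every other comparison.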
